A study of Mus musculus with 6 samples.

Results

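The genes described here encode the steps by which a cell takes up glucose, breaks it down to pyruvate and lactate, diverts part of it into the pentose phosphate pathway and burns the pyruvate in the tricarboxylic acid (TCA) cycle. They were taken from a list of 45 gene symbols, and a gene was measured by the array row that carried its symbol and no other, or by the row with the highest mean where there were several. Such a row was found for 41 of the 45, out of 19937 genes with a row of their own. All 41 lay above the filter on low values that left 15037 genes tested, the lowest being Eno2. Gpi1, Eno1 and G6pdx had no row of this kind and were not analysed here, and Gapdh shared each of its rows with other symbols.

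The arrays measured CD4+ TCRβ+ CD25+ cells, sorted as regulatory T cells (Tregs) after T cells of wild-type mice had spent 5 days in a host without T cells of its own. In the MHC II-competent group the host was CD3ε-/-. In the MHC II-deficient group it also lacked MHC class II, the molecule that shows peptides to the receptor (TCR) of CD4+ T cells. Each group had 3 arrays, here called competent 1 to 3 and deficient 1 to 3. The strain was C57BL/6, the age 6 to 8 weeks and the tissue spleen and peripheral lymph nodes in both. The labels call the replicates biological, but they name neither the MHC II allele nor the number of hosts behind a replicate. A p-value here therefore refers to variation among the preparations. The CD25 gate can also admit conventional T cells that have been activated. Foxp3, the defining transcription factor of Tregs, stood at 9.82 ± 0.05 and 9.77 ± 0.09 (SD, n = 3) in the competent and deficient groups, on the log2 scale used throughout, and the T cell gene Cd3e at 11.19 ± 0.07 and 11.12 ± 0.03.

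Markers of macrophages and dendritic cells differed between the groups. The mean log2 value of the 17 markers tested was 6.84, 7.15 and 6.36 on competent 1 to 3 and 7.77, 7.63 and 7.09 on deficient 1 to 3. Of these markers 15 lay higher in the deficient group and 2 lower, with a median log2 difference of 0.72, and 1 (Adgre1) passed the test described below. At an unadjusted p under 0.05 in that test there were 15 of the 17 (88.2%), against 18.9% of all tested genes. Both lower markers, Itgam and Cst3, were among these 15. The marker lists were chosen with earlier results of these data known, so the share of 88.2% is not an independent test. All 5 T cell markers and all 5 Treg markers tested had differences of 0 or below, with medians of -0.08 and -0.27, and 0 of them passed limma's test (1 and 3 at an unadjusted p under 0.05). The 3 tested markers of CD8 T and NK cells had a median of 0.32. The 4 tested B cell markers lay on both sides of 0, with Cd79a at 0.46, Blk at 0.19, Pax5 at 0.02 and Cd79b at -0.39. A further B cell gene, Ms4a1, lay between 4.36 and 4.97, under the filter. The 3 tested erythroid and platelet markers had a median of 0.15, with Alas2 at 0.52. The arrays measured the RNA of a whole sort, in which fewer cells of a type and less RNA per cell cannot be told apart.

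As background, resting T cells draw most of their energy from pyruvate and fatty acids oxidised in the mitochondria. Stimulation through the TCR and costimulatory receptors activates PI3K, mTOR, Myc and the hypoxia-inducible factor HIF-1, which raise glucose transport and glycolysis, and the pentose phosphate pathway then supplies ribose and NADPH for growth. Tregs are known for relying more on mitochondrial oxidation than effector T cells do.

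Of the 41 genes, 0 passed the threshold in limma's test (adjusted p under 0.05 over all 15037 genes, deficient minus competent). Over all tested genes 3.37% passed, 2.03% lower and 1.34% higher in the deficient group. At an unadjusted p under 0.05 there were 5 of the 41 (12.2%), against 18.9% of all tested genes. They were Mdh1, Tkt, Fh1 and Suclg1, which lay lower, and Pdk1, which lay higher. The share of the pathway genes with a small p was thus no larger than that of all tested genes.

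The differences were small and mostly below 0. The log2 differences ran from -0.47 (Idh3a) to 0.47 (Pdk1), with a median of -0.15, and 34 of the 41 genes (82.9%) had a negative difference. The median over all tested genes was 0.02, with 46% below 0. Differences moved with signal level over the whole array, however. Among the 4611 tested genes with a mean of at least 8, the median was -0.10 with 67.3% below 0, and 28 of the 41 pathway genes lay at that level, with a median of -0.16. The values of the 3 deficient arrays lay wholly below those of the 3 competent arrays for 10 of the 41 genes (24.4%) and wholly above for 0. Over all tested genes these shares were 12.9% and 11.4%, and among genes with a mean of at least 8 the share wholly below was 26%. Under quantile normalization, which sets the arrays to a common distribution, the median was -0.10 for the 41 genes, -0.03 for tested genes with a mean of at least 8, and 0 of the 41 passed.

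For 33 of the 41 genes (80.5%) the whole interval lay within a 1.5-fold change in either direction, a log2 size of 0.585. The share was near that of all tested genes (82.9%) and of those with a mean of at least 8 (77.7%). The other 8 of the 41 were Hk2, Tpi1, Tkt, Dlat, Pdhb, Pdk1, Idh3a and Fh1, whose intervals reached beyond this bound. The intervals are for single genes and are not adjusted for the number of genes.

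**Figure D1:**
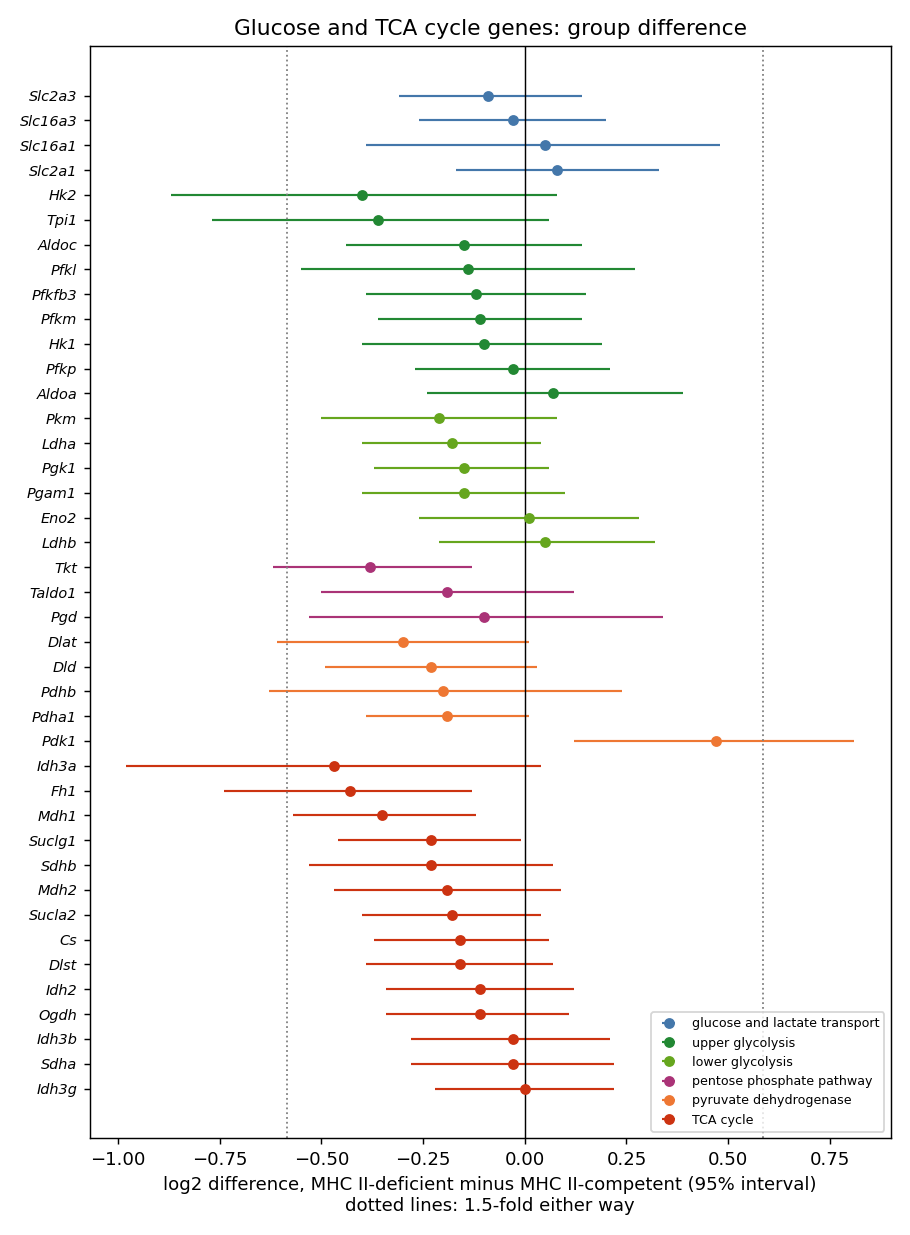
Log2 difference (x axis, MHC II-deficient minus MHC II-competent) of the 41 measured genes, grouped and coloured by pathway, with 95% intervals from limma, 3 arrays per group. Most points lie left of 0 and between the dotted lines that mark 1.5-fold, Idh3a lies lowest at -0.47 and Pdk1 highest at 0.47.

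Glucose and lactate cross the cell membrane through 4 measured carriers, and all 4 had overlapping groups and differences between -0.09 and 0.08. Slc2a1 encodes GLUT1, the glucose carrier that activated T cells raise, and it read 8.25, 8.35 and 8.01 on competent 1 to 3 and 8.29, 8.33 and 8.23 on deficient 1 to 3. The groups overlapped, with a log2 difference of 0.08 and a 95% interval from -0.17 to 0.33 (limma, adjusted p = 0.744). Slc2a3, which encodes GLUT3, differed by -0.09 (interval -0.31 to 0.14). Slc16a3, encoding the lactate exporter MCT4, differed by -0.03 (interval -0.26 to 0.20). Slc16a1, encoding the lactate and pyruvate carrier MCT1, spread most within a group, with 7.38, 6.90 and 6.53 on the competent arrays, and its difference of 0.05 had an interval from -0.39 to 0.48.

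In upper glycolysis, from hexokinase to triose phosphate, 8 of 9 genes lay below 0 with a median of -0.12, and 0 passed. Hk2 encodes the inducible hexokinase, which traps glucose in the cell. It read 7.41, 6.79 and 6.66 on competent 1 to 3 and 6.73, 6.75 and 6.19 on deficient 1 to 3, so that competent 1 stood highest, deficient 3 lowest and the other arrays close together. The log2 difference was -0.40 (SE 0.21, adjusted p = 0.351), and it was -0.17 without competent 1 and -0.21 without deficient 3. Tpi1, which interconverts the triose phosphates, read 10.08, 9.91 and 9.35 against 9.64, 9.27 and 9.35, a difference of -0.36 (SE 0.18, adjusted p = 0.338). Here competent 3 lay within the deficient range. With 1 array left out the difference ran from -0.57 (without competent 3) to -0.20 (without competent 1).

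For the phosphofructokinase genes, whose enzyme commits sugar to glycolysis, the groups overlapped. The differences were -0.14 for Pfkl (SE 0.18), -0.11 for Pfkm (SE 0.11) and -0.03 for Pfkp (SE 0.11). Pfkfb3, whose enzyme makes the allosteric activator fructose 2,6-bisphosphate, differed by -0.12 (SE 0.12), with the deficient arrays at 7.43, 7.45 and 7.48, all within the competent range. The aldolase genes, whose enzyme splits the hexose, lay at 0.07 (Aldoa, SE 0.14) and -0.15 (Aldoc, SE 0.13). A list of 13 further tested genes of glucose transport and glycolysis lay on the other side of 0, with 9 above and 4 below (30.8%), a median of 0.08 and 0 past the threshold in limma's test (2 at an unadjusted p under 0.05). Most of them had a mean under 8. All tested genes at that level had a median of 0.05, with 36.6% below 0.

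Hk1, the constitutive hexokinase gene, rested on a row whose identity is uncertain. The row chosen for its high mean was annotated by a single cDNA record, and the same record stood on 15 other rows that also carried the ribosomal protein gene Rpl17. It read 11.91 ± 0.24 and 11.81 ± 0.10 (SD, n = 3), a difference of -0.10. The Hk1 row annotated with RefSeq mRNAs read 8.47, 8.46 and 7.94 on the competent and 8.23, 8.40 and 8.30 on the deficient arrays, with a difference of 0.02. The sign therefore depends on the row, and neither difference passed.

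Lower glycolysis, from phosphoglycerate kinase to lactate, had 4 of 6 measured genes below 0, a median of -0.15 and 0 past the threshold. Pkm, which encodes pyruvate kinase, read 10.84, 10.60 and 10.34 on competent 1 to 3 and 10.36, 10.39 and 10.39 on deficient 1 to 3. The deficient arrays lay close together (SD 0.02) and the competent ones apart (SD 0.25), with competent 3 lowest of all. The difference was -0.21 (SE 0.13, adjusted p = 0.414). A further Pkm row differed by -0.28. Ldha, which encodes the lactate dehydrogenase subunit typical of glycolytic cells, read 10.75, 10.65 and 10.83 against 10.48, 10.59 and 10.62. Every deficient value lay below every competent one, but the difference of -0.18 (SE 0.10, adjusted p = 0.354) did not pass. Pgk1, for phosphoglycerate kinase, was also without overlap, at 11.57, 11.50 and 11.37 against 11.31, 11.35 and 11.32 (difference -0.15, SE 0.10). Pgam1, for phosphoglycerate mutase, differed by -0.15 (SE 0.11). Eno2, the enolase gene best known from neurons, stood at 5.23 ± 0.22 and 5.24 ± 0.03, just above the filter value of 5.205. Ldhb, the lactate dehydrogenase gene of oxidative tissues, had rows that differed by 0.05 and 0.16. Several of these genes, among them Pgk1, Ldha, Tpi1, Pgam1 and Aldoa, have processed pseudogenes in mouse, so their rows may bind near-identical copies.

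Isozyme pairs were compared within each array, which removes any shift common to its genes. Only the change between groups is meaningful, since different rows have no common scale. Of the 7 pairs with both genes measured, the difference between groups was -0.23 for Ldha minus Ldhb, 0.17 for Slc2a1 minus Slc2a3, -0.08 for Slc16a3 minus Slc16a1, -0.22 for Aldoc minus Aldoa, 0.11 for Pfkp minus Pfkl, 0.03 for Pfkm minus Pfkl and -0.29 for Hk2 minus Hk1. The lowest exact permutation p was 0.2, for Ldha minus Ldhb (two-sided, 20 assignments, adjusted 0.7 over the 7 pairs), and 3 arrays against 3 cannot give less than 0.1. With the RefSeq row of Hk1 the last pair stood at -0.42 (exact permutation p = 0.3).

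**Figure D2:**
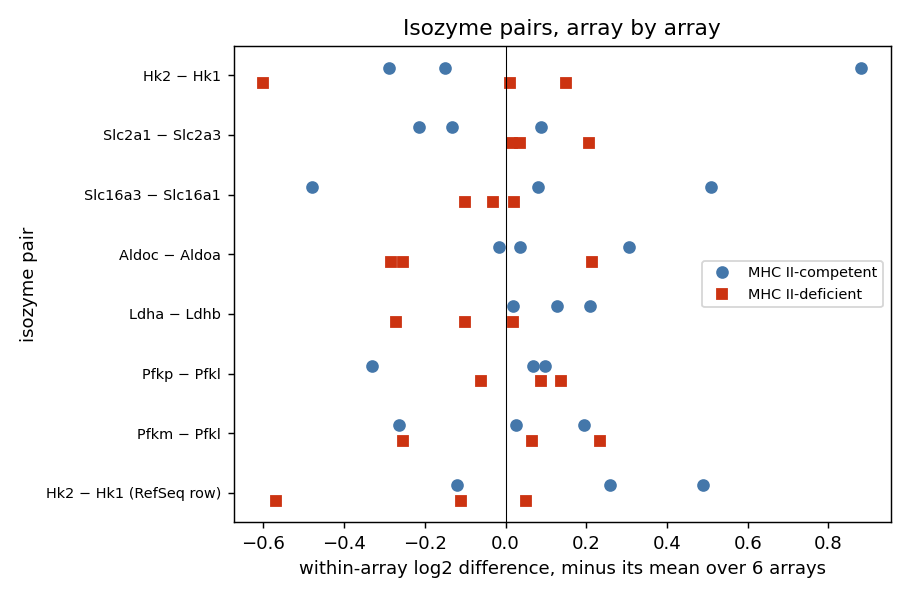
Within-array log2 difference of each isozyme pair, shown as deviation from its mean over 6 arrays (x axis, log2 units), with circles for MHC II-competent and squares for MHC II-deficient arrays. The groups overlap or touch in each pair, with Ldha minus Ldhb lowest in p at 0.2.

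The pentose phosphate pathway held the gene with the second lowest p among the 41. Tkt, which encodes transketolase of the non-oxidative branch, read 8.24, 8.24 and 7.98 on competent 1 to 3 and 7.68, 7.83 and 7.82 on deficient 1 to 3, without overlap. The difference of -0.38 (SE 0.11, 95% interval -0.62 to -0.13) had an adjusted p of 0.101. Without competent 3 it passed, at -0.46 and an adjusted p of 0.0399. Taldo1, for transaldolase of the same branch, differed by -0.19 (SE 0.14). Pgd, for 6-phosphogluconate dehydrogenase of the oxidative branch, spread widely among the competent arrays (9.70, 9.35 and 8.88) and differed by -0.10 (SE 0.19). All 3 measured genes lay below 0. Of 8 further genes of the pathway, which were chosen as were all the gene lists here with earlier results of these data known, 7 lay below 0 and 0 passed, with Pgls, for the lactonase, at -0.29 (SE 0.11, adjusted p = 0.198).

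Pyruvate enters the mitochondrion through a carrier and is made into acetyl-CoA by the pyruvate dehydrogenase complex, which the PDK kinases switch off. The subunit genes of the complex all lay below 0 and did not pass. Pdha1, for the catalytic subunit that the kinases phosphorylate, read 9.52, 9.48 and 9.42 against 9.27, 9.32 and 9.26, without overlap (difference -0.19, SE 0.09, adjusted p = 0.285). Pdhb differed by -0.20 (SE 0.19), Dlat, for the acetyltransferase core, by -0.30 (SE 0.14) and Dld, for the lipoamide dehydrogenase, by -0.23 (SE 0.11). With 1 array left out Pdhb ranged from -0.45 (without competent 3) to -0.04 (without competent 2) and Dlat from -0.38 (without deficient 2) to -0.15 (without deficient 1).

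Among the kinase genes Pdk3 fell and Pdk1 lay higher without passing. Pdk3, which was not among the 45, read 8.49, 8.86 and 8.12 on competent 1 to 3 and 7.73, 7.77 and 7.64 on deficient 1 to 3. The deficient values lay close together and below all the competent ones, and Pdk3 fell by 0.78 on the log2 scale (SE 0.17, 1.72-fold, adjusted p = 0.039). Pdk1, a kinase gene known as a HIF-1 target, read 7.64, 8.05 and 7.70 against 8.47, 8.34 and 7.98. Deficient 3 lay below competent 2, and the difference of 0.47 (SE 0.15, 95% interval 0.12 to 0.81, adjusted p = 0.141) did not pass. Pdk2 differed by 0.13 (SE 0.10), and Pdk4 lay under the filter. Mpc1, which encodes a subunit of the mitochondrial pyruvate carrier, read 7.67, 7.80 and 7.71 against 7.17, 7.33 and 7.43, a difference of -0.42 (SE 0.10, adjusted p = 0.0635). Of the 8 further genes tested around this step 1 passed, namely Pdk3, against 3.37% of all tested genes. Of these genes 3 lay below 0 and 5 above, with a median of 0.06.

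The call of Pdk3 was lost without any of 5 single arrays (all but competent 3), with the highest adjusted p at 0.125 and differences from -0.59 to -0.81, and under median centring (-0.83, adjusted p = 0.057). With the myeloid marker mean as a covariate Pdk3 stood at -1.19 (adjusted p = 0.034), while Pdk1 stood at 0.09 (SE 0.17). That mean overlapped between the groups only in that deficient 3 (7.09) lay below competent 2 (7.15). The fit left 3 residual degrees of freedom. Group and marker mean are therefore hard to tell apart in every fit with this covariate.

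TCA cycle genes lay lower by small amounts. Of the 14 measured, 13 were below 0 and 0 passed, with a median of -0.17 (-0.10 under quantile normalization), against -0.10 over tested genes with a mean of at least 8 (-0.03 under quantile normalization). Mdh1 encodes the cytosolic malate dehydrogenase of the malate-aspartate shuttle and had the lowest p of the 41. It read 10.45, 10.30 and 10.24 on competent 1 to 3 and 9.90, 10 and 10.04 on deficient 1 to 3, without overlap, and differed by -0.35 (SE 0.10, 95% interval -0.57 to -0.12, adjusted p = 0.10). Its mitochondrial counterpart Mdh2 overlapped, at 11.04, 10.96 and 10.63 against 10.62, 10.80 and 10.63 (difference -0.19, SE 0.12). Fh1, for fumarase, read 9.51, 9.19 and 9.45 against 8.81, 8.82 and 9.21, where deficient 3 lay just above competent 2 (difference -0.43, SE 0.14, adjusted p = 0.128). With the myeloid marker mean as a covariate Fh1 stood at -0.12 (SE 0.17).

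Idh3a showed how far a single array can set a value. It encodes the catalytic subunit of the NAD-dependent isocitrate dehydrogenase and read 9.19, 9.23 and 8.25 on competent 1 to 3, against 8.43, 8.44 and 8.40 on deficient 1 to 3. Competent 3 lay below every deficient array and the other competent arrays far above, so the difference of -0.47 had an SE of 0.23 (adjusted p = 0.309). Without competent 3 it was -0.79 (SE 0.10, adjusted p = 0.00616), and without competent 2 it was -0.30. The genes of the partner subunits did not follow, with Idh3b at -0.03 (SE 0.11) and Idh3g at 0.00 (SE 0.10, interval -0.22 to 0.22).

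The remaining cycle genes fell into a narrow range of differences. Cs, for citrate synthase, read 10.45, 10.36 and 10.22 against 10.19, 10.21 and 10.16 (difference -0.16, SE 0.10). Suclg1 and Sucla2, for subunits of succinyl-CoA ligase, were without overlap as well, with differences of -0.23 (SE 0.10) and -0.18 (SE 0.10). For Sucla2 the groups all but touched, with competent 3 and deficient 3 both at 9.52 after rounding. Idh2, the NADP-dependent mitochondrial isocitrate dehydrogenase gene, stood at -0.11, and so did Ogdh, for the first subunit of the oxoglutarate dehydrogenase complex, with Dlst of that complex at -0.16. Sdha and Sdhb, which encode succinate dehydrogenase subunits of the cycle and the respiratory chain, stood at -0.03 and -0.23. Of 10 further genes of the cycle and its exits, 7 lay below 0 and 0 passed, the lowest p being that of Acly, for ATP citrate lyase, at -0.33 (SE 0.11, adjusted p = 0.148).

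**Figure D3:**
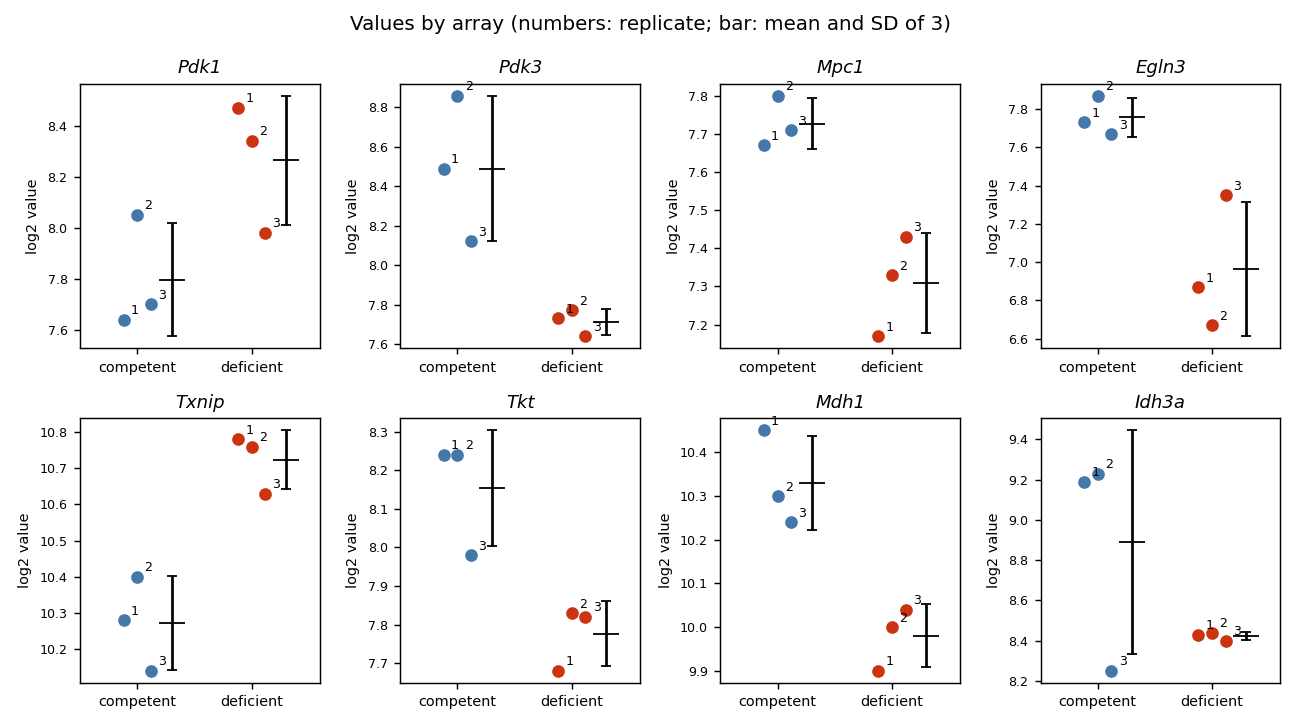
Log2 values (y axis, scaled to each gene) of 8 genes on the 6 arrays, with replicate numbers beside the points and the mean with SD of 3 arrays. Pdk3 and Egln3 passed the test and lie lower on all deficient arrays, and competent 3 of Idh3a lies with the deficient arrays.

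The competent arrays differed among themselves more than the deficient ones. The SD over 3 arrays was larger in the competent group for 29 of the 41 genes (70.7%), against 63.2% of all tested genes, with median SDs of 0.16 and 0.10 for the 41 and 0.14 and 0.11 for all. Competent 1 was the highest of the 6 arrays for 24 of the 41 genes (58.5%), against 19.1% of all tested genes and 26.1% of those with a mean of at least 8. Competent 3 was the lowest for 12 (29.3%) and deficient 1 for 15 (36.6%) of the 41. Among tested genes with a mean of at least 8 these shares were 23.6% and 24.4%. The mean deviation of the 41 genes from their own 6-array means was 0.18, 0.09 and -0.06 on competent 1 to 3 and -0.09, -0.05 and -0.07 on deficient 1 to 3. Competent 3 thus lay within the range of the deficient arrays. The same held over all tested genes with a mean of at least 8. Their mean deviation was -0.03 on competent 3 and -0.05, -0.05 and -0.02 on deficient 1 to 3. Leaving out competent 3 brought 3 of the 41 genes past the threshold, all lower in the deficient group, namely Idh3a, Tkt and Tpi1 (-0.57, adjusted p = 0.0495). Calls rose over the whole array in that fit, to 708 of the 15037 tested genes (68.6% of them lower) from 507. With any other array left out 0 of the 41 passed. Competent 3 also had the lowest myeloid marker mean, 6.36. With that mean as a covariate 0 of the 41 passed, but many differences moved. The size of the difference, taken without its sign, grew by over 1.5 times for 21 of the 41 and shrank by as much for 7. The 21 include Slc2a1, Slc16a1, Aldoa and Idh3b, whose sign turned, and Idh3g, which moved from 0.00 to -0.13. With the covariate Idh3a stood at -1.0, Hk2 at -0.79, Tpi1 at -0.75, Pdhb at -0.64 and Pgd at -0.44, and the median of the 3 pentose phosphate genes was -0.44 in place of -0.19. Leaving out a single array moved the difference of 32 of the 41, again in size without sign, by over 1.5 times in at least 1 of the 6 fits. These counts used rounded differences, and for a gene near 0 a small change is enough. Slc16a3, for example, stood at -0.03 with all arrays and between -0.09 and 0.03 with 1 left out.

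**Figure D4:**
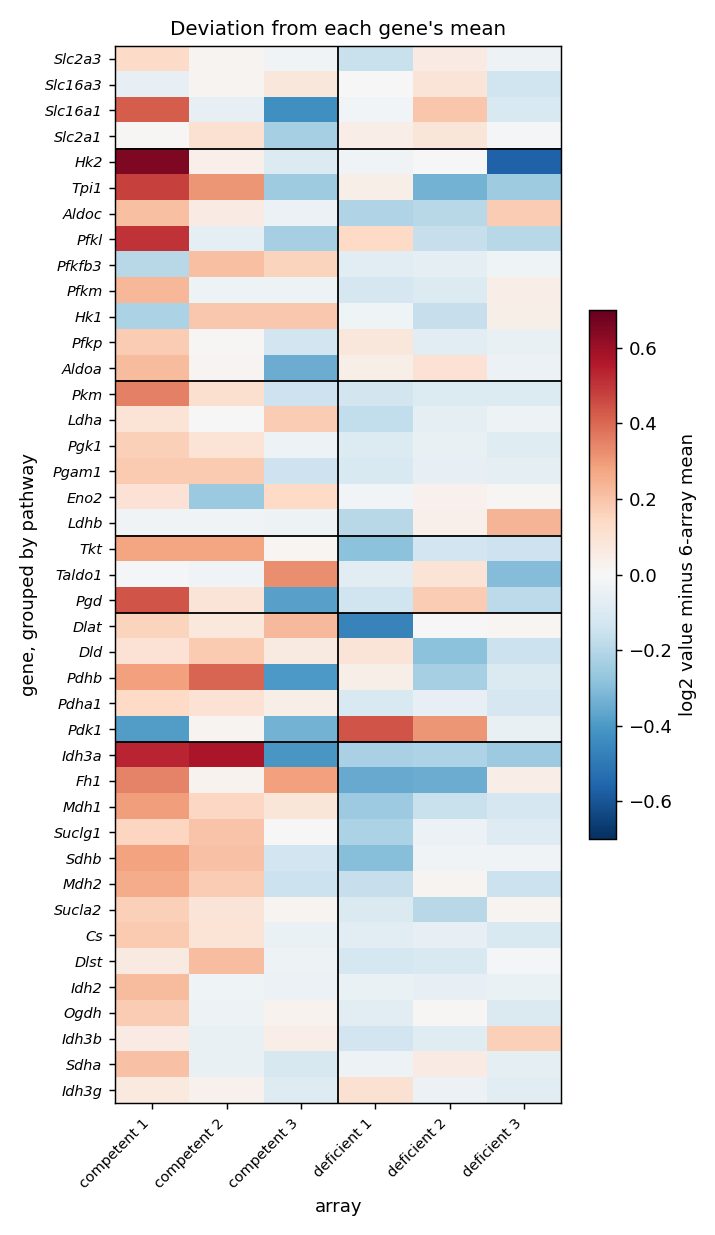
Deviation of each of the 41 genes (rows, grouped by pathway with lines between groups) from its own mean over 6 arrays, in log2 units, for competent 1 to 3 and deficient 1 to 3 (columns). Competent 1 is the highest array for 24 genes, and competent 3 resembles the deficient arrays in many rows, such as Idh3a and Pkm.

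Regulators of these pathways were followed as a separate list of 12 tested genes, of which 1 fell, against 2.03% of all tested genes. The deficient arrays lay wholly above the competent ones for 3 of the 12 regulators and wholly below for 2 (16.7%). Over all tested genes 11.4% lay wholly above and 12.9% wholly below. The 3 were Txnip (0.45), Esrra (0.11) and Mtor (0.04), and the 2 were Egln3 and Myc. Egln3 encodes the oxygen-sensing prolyl hydroxylase PHD3, which marks HIF proteins for destruction and is itself a known HIF target. It read 7.73, 7.87 and 7.67 on competent 1 to 3 and 6.87, 6.67 and 7.35 on deficient 1 to 3. All deficient values lay below the competent ones, and Egln3 fell by 0.79 on the log2 scale (SE 0.16, 1.73-fold, adjusted p = 0.0336). The call was lost without competent 1, competent 2, deficient 1 or deficient 2 (highest adjusted p 0.129), and with the myeloid marker mean as a covariate the difference was -0.61 (SE 0.24, adjusted p = 0.289). Hif1a itself differed by -0.18 (SE 0.12, adjusted p = 0.45), and the related hydroxylase gene Egln1 by -0.13 (SE 0.12).

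Txnip and Myc lay on opposite sides of 0. Txnip encodes an arrestin-like protein that removes glucose carriers from the membrane and is abundant in resting T cells. It read 10.28, 10.40 and 10.14 against 10.78, 10.76 and 10.63, without overlap, a difference of 0.45 (SE 0.10, 95% interval 0.21 to 0.68). Its adjusted p was 0.0513, and it passed under quantile normalization (0.54, adjusted p = 0.0214). It did not pass under median centring (0.39, adjusted p = 0.104) or with any array left out (0.38 to 0.51, adjusted p from 0.0754 to 0.182). With the myeloid marker mean as a covariate the difference was 0.25 (adjusted p = 0.447). Myc, which activates many glycolytic genes in stimulated T cells, read 9.80, 9.97 and 9.86 against 9.53, 9.60 and 9.76, a difference of -0.25 (SE 0.10, adjusted p = 0.232). Over all 51 further genes of the pathways and regulators, 2 passed (3.92%), Pdk3 and Egln3, both lower, against 3.37% of all tested genes. Of the 51, 29 lay below 0 (56.9%, against 46% of all tested genes), with a median of -0.04.

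The promoter windows of the genes on which these results turn are shown with the core of the motif that HIF binds, since Pdk1, Egln3 and Ldha are known HIF targets. Each is the 250 bases before the RefSeq start in GRCm38.p6 (for Pdk1 and Ldha the upstream of 2 annotated starts), 5′ to 3′ along the gene, and capitals mark ACGTG or GCGTG on either strand. Pdk3 and Egln3 are the called genes, Pdk1 the kinase gene on the other side of 0, and Ldha a glycolytic gene.
Pdk3, chrX:93832151-93832400, minus strand: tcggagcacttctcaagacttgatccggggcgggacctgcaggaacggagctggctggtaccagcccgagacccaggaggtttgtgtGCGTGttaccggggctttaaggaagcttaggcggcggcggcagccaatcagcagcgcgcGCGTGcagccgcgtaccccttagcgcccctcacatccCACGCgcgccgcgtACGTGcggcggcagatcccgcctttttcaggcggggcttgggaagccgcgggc
Pdk1, chr2:71872974-71873223, plus strand: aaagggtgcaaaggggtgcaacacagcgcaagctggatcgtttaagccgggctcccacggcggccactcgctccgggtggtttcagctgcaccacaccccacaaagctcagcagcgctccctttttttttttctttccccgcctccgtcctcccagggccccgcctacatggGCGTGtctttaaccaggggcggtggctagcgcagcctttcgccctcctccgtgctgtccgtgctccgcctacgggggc
Egln3, chr12:54203875-54204124, minus strand: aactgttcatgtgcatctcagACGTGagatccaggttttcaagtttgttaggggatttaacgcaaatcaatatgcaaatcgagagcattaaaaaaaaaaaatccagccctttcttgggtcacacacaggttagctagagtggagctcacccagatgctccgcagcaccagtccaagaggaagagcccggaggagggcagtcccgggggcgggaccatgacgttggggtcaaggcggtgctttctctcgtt
Ldha, chr7:46845554-46845803, plus strand: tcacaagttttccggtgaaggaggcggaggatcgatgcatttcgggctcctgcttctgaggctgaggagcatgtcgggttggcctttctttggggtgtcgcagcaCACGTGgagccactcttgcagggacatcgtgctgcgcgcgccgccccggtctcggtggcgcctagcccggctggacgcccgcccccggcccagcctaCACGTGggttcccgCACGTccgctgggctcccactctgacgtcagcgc

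The Pdk3 window held 4 such cores and the Pdk1 and Egln3 windows 1 each. The Ldha window held CACGTG, the E-box read by Myc, 2 times, and since CACGTG contains ACGTG on both strands its 5 matches include each E-box on both. Promoter windows were found for 39 of the 41 genes, 56 windows in all. ACGTG or GCGTG on either strand lay in 75% of these and in 46.2% of the 19176 windows of all genes on the array, ACGTG alone in 42.9% and 18.4%, and CACGTG in 12.5% and 6.99%. The windows of the 39 genes were also richer in CpG, with a median of 15 per window against 11, and these motifs contain CpG. A match describes letters in the window and does not show binding.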

How the data were processed

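Each of 6 samples was hybridised to an Affymetrix array after its RNA (100 ng) was converted to labelled cDNA with a whole-transcript kit, per the labels' protocols. The authors deposited 1 table of values per array, taken as log2. Per the submitters' processing notes it was made with affy and RMA (background correction, a common distribution for the arrays and a summary per row). The log base, versions, annotation and build are not given in the sources used here. Array medians lay between 6.11 and 6.25, and the number of arrays limits the precision.

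Of 28101 rows, 21640 had 1 gene symbol, 1321 several and 5140 none. Symbols came from the platform annotation, updated by Entrez identifier (21553 rows matched, 87 kept their symbol). Genes with a mean under 5.205, the 25th percentile of gene rows, were left out, 4900 of 19937. The fit used limma 3.58.1 in R 4.3.3 (lmFit, eBayes, two-sided, no covariate, 9.40 degrees of freedom), tested on simulated data first, with Benjamini-Hochberg adjustment over 15037 genes. Isozyme pairs were compared by exact permutation tests. Members and lists were chosen with earlier results of these data known. Named were all members past the threshold, the 2 largest and the smallest differences per pathway, a fixed set of 25 enzymes and carriers, and, among the further genes, those past the threshold with Myc, Hif1a and Txnip. Mpc1, Pdk2, Pdk4, Egln1, Esrra, Mtor, Pgls, Acly and the other members were added after their values were seen. Same-numbered arrays did not deviate together (correlations -0.025, -0.141 and 0.069), so the numbers were not taken to pair the samples. Alternatives were other filters, normalizations, priors and weights, a block, the mean of a gene's rows, a myeloid covariate, the RefSeq row of Hk1 (added after seeing the data) and each array left out.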

Additional observations from a re-analysis of the deposited data

How the results depend on the processing

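The count of pathway genes past the threshold stayed at 0 under each alternative except the one that left out competent 3. With 1 array left out it ranged from 0 to 3, the count of further pathway genes from 0 to 3 and that of all tested genes from 159 to 708. The isozyme tests could not reach 0.05 in any setting, so their count of 0 says nothing about stability. The further pathway genes had 1 call under median centring (Egln3) and 1 with the myeloid covariate (Pdk3), against 2, and 3 calls, Txnip added, under 5 others (filter at the median, quantile normalization, trended robust prior, array weights and mean of a gene's rows). With that covariate 75 of all tested genes passed. Of the calls over all genes 60.4% were lower, 50% under quantile normalization (230 and 230) and 70% under median centring (297 lower, 127 higher). With the replicate number as a block 0 of the pathway genes and 564 of all tested genes passed. Signs of small differences turned under quantile normalization for Pfkp (0.04), Eno2 (-0.05), Idh3b (0.05) and Sdha (0.05), under median centring for Slc16a1 (-0.01) and Eno2 (-0.04), and with array weights for Slc16a1 (-0.09), Aldoa (-0.01) and Eno2 (-0.02). With the myeloid covariate they turned for Slc2a1 (-0.13), Slc16a1 (-0.26), Aldoa (-0.18) and Idh3b (0.15), and with the RefSeq row for Hk1 (0.02). The cause was not tested.

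With 1 array left out, the sign turned at least once for these differences, given as the lowest and highest of the 6 values: Pfkl (-0.29 to 0.08), Pfkp (-0.11 to 0.05), Sdha (-0.09 to 0.07), Pgd (-0.31 to 0.10), Hk2 minus Hk1 (-0.51 to 0.07), Pfkp minus Pfkl (-0.03 to 0.19), Pfkm minus Pfkl (-0.09 to 0.17), Eno2 (-0.12 to 0.08), Slc2a1 (-0.01 to 0.16), Slc16a1 (-0.16 to 0.27), Aldoa (-0.08 to 0.20), Slc16a3 minus Slc16a1 (-0.34 to 0.16), Idh3b (-0.13 to 0.02), Slc16a3 (-0.09 to 0.03), Ldhb (-0.05 to 0.16) and Idh3g (-0.05 to 0.04). Eno2 lay just above the filter, and signal over background was not analysed here.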

Other observations

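Gapdh, the glycolytic gene most used as a loading standard, stood on 11 rows that each also named other genes, and these entered no test. The row means ran from 4.04 to 12.52, and the log2 differences, deficient minus competent, from -0.45 to 0.18 with a median of -0.08, 7 of the 11 being below 0. The mean over the 11 rows was 8.25, 8.24 and 7.80 on competent 1 to 3 and 7.98, 8.09 and 7.88 on deficient 1 to 3. In this mean competent 3 lay below the deficient arrays, but single rows went both ways. The row with the highest mean read 12.63 on competent 3 and 12.46, 12.51 and 12.62 on deficient 1 to 3. Another bright row read 11.61 against 11.83, 11.93 and 11.79.

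The 15 rows that named Rpl17 together with Hk1 had competent means from 7.42 to 12.84. Their differences ran from -1.53 to 0.10 with a median of -0.12, 11 of the 15 being below 0. The Hk1 row that shares their cDNA record stood at -0.10. Tested genes with a mean of at least 8 also had a median of -0.10, so these values do not tell what that row measures.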
